A study of Homo sapiens with 6 samples.

Results

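Transcripts of EPCAM and of epithelial junction and keratin genes were followed in U2OS, a human bone tumour (osteosarcoma) cell line, in which siRNA was aimed at H3.Y or at H3.X together with H3.Y. Both are variants of histone H3 known from primates. The list held 9 genes, namely EPCAM, CLDN4, CLDN7, CDH1, KRT14, KRT8, KRT18, ESRP1 and OCLN, and they were chosen from differences among the siRNA groups with earlier results of these same arrays known. A probe set, the group of probes that is summarised into 1 value, was taken when it carried exactly 1 gene symbol and that symbol was on the list. This gave 9 probe sets of 7 genes, with 2 each for EPCAM and KRT18, out of 33297 probe sets on the arrays and 18417 named genes. OCLN had 1 probe set that also carried a second symbol and was left out, and ESRP1 was not analysed here. Because the differences among the groups led to the choice, the members' levels and differences are given as a description, with no p-value for any member. Counts of members past the threshold used for all probe sets are printed beside the share of all probe sets past it, and nothing is read from them.

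The 6 arrays held 3 groups of 2. The first, named the combined knockdown here, received siRNA to H3.X plus H3.Y, the second siRNA to H3.Y, and the control group siRNA to luciferase. All groups were U2OS cells grown in DMEM with 10% FCS, transfected 2 times with oligofectamine and harvested 4 days after transfection. The labels do not give the siRNA sequences or say whether the combined knockdown used a pool, and of the genes that encode H3.Y and H3.X, H3Y1 and H3Y2, 0 probe sets carried the name, so the knockdown itself was not analysed here. The arrays of a group are labelled biological replicates with no word on how cultures were separated, so what a p-value measures is spread among these arrays, possibly technical. Values are log2 expression values as deposited, with array medians from 5.10 to 5.14, lower quartiles from 3.28 to 3.40 and upper quartiles from 7.02 to 7.07. With so few arrays, their number is what bounds the precision. In bulk RNA, fewer expressing cells and less RNA per cell cannot be told apart.

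Epithelial cells adhere through E-cadherin in adherens junctions, seal the space between them with claudins and occludin in tight junctions, and brace themselves with keratin filaments anchored in desmosomes. EPCAM is a surface glycoprotein of epithelia that mediates cell contact and associates with claudins. In mesenchymal cells such as those of bone, repressors of the ZEB, SNAIL and TWIST families keep many of these genes low by binding E-boxes in their promoters, and microRNAs of the miR-200 family in turn lower ZEB1 and ZEB2.

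Vimentin (VIM), the intermediate filament of mesenchymal cells, read 10.69 to 10.95 log2 units over the 6 arrays. Of 12 mesenchymal and osteoblast markers, 11 genes were measured and 9 of their 11 probe sets lay above 5.11, the median of all probe set means. The lowest of them was IBSP, a bone matrix protein, between 3.05 and 3.36. For keratinocyte differentiation markers 0 of 8 probe sets lay above that median, and for blood and endothelial markers 0 of 8. Of the member probe sets, 7 of 9 lay above it. For the other epithelial lists described below, it was 20 of 31 for tight junction, 10 of 11 for adherens junction and 7 of 12 for desmosome genes. It was 5 of 10 for other keratins, 5 of 15 for surface and secretory genes and 1 of 10 for transcription and splicing factors. The mean level of the keratinocyte list ranged over the arrays from 4.14 to 4.20 in the combined knockdown, 4.08 to 4.22 after H3.Y siRNA and 3.97 to 4.16 after luciferase siRNA.

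EPCAM was the member with the widest spread between groups. On its first probe set (8041853), EPCAM read 7.41 and 7.21 log2 units in the combined knockdown, 4.65 and 5.05 after H3.Y siRNA, and 4.97 and 5.14 after luciferase siRNA. Both combined knockdown arrays stood clear of the other 4, while the H3.Y and luciferase arrays overlapped. On its second probe set (8098439), EPCAM read 7.69 and 7.88 in the combined knockdown, 3.34 and 4.34 after H3.Y siRNA, and 4.96 and 5.15 after luciferase siRNA. Here all 3 groups were apart, with the combined knockdown at the top, luciferase in the middle and H3.Y at the bottom. The EPCAM gene lies on chromosome 2 from 47369311 to 47387020 in GRCh38.p14, a position taken for the gene and not from the probes.

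In the combined knockdown EPCAM was thus 4.77-fold higher than in luciferase cells on the first probe set (log2 2.25 ± 0.18 SE, n = 2 arrays per group) and 6.64-fold higher on the second (2.73 ± 0.31). Against H3.Y siRNA the combined knockdown was 5.50-fold higher on the first (2.46 ± 0.18) and 15.4-fold higher on the second (3.95 ± 0.31). After H3.Y siRNA the difference from luciferase was log2 -0.21 ± 0.18 on the first probe set and -1.22 ± 0.31 on the second. The 2 probe sets therefore gave the same direction and differed by log2 0.48 between the combined knockdown and luciferase, but by 1.01 between H3.Y siRNA and luciferase. The number of the second set, 8098439, falls between those of SPP1 (8096301) and PROM1 (8099476), both on chromosome 4. At which locus its probes were designed, and what else the probes of either set may bind, was not tested. Among all 33297 probe sets, the combined knockdown against luciferase ranked EPCAM 34th and 12th by size of the log2 difference.

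**Figure D1:**
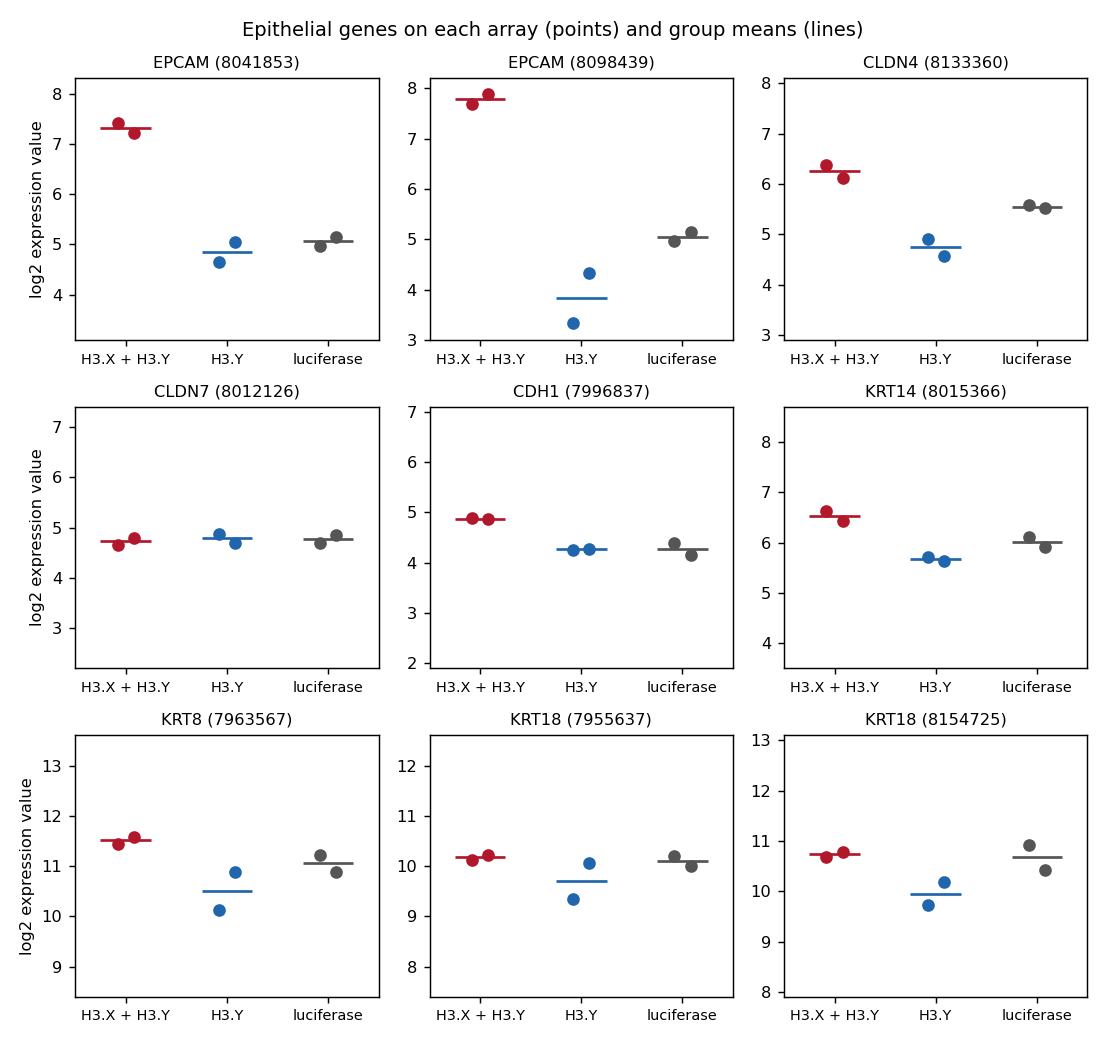
Log2 expression values (y axis, each panel spanning the same number of log2 units) of the 9 member probe sets on each array (points) and their group means (lines), with the siRNA groups on the x axis and the probe set number in brackets. EPCAM reads 7.21 to 7.88 on the combined knockdown arrays and at most 5.15 on the others, while CLDN7 lies between 4.66 and 4.87 everywhere.

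The claudins, the sealing proteins of tight junctions, did not share 1 pattern. CLDN4 read 6.38 and 6.13 log2 units in the combined knockdown, 4.90 and 4.57 after H3.Y siRNA, and 5.57 and 5.52 after luciferase siRNA, so its 3 groups did not overlap. It differed from luciferase by log2 0.70 ± 0.17 in the combined knockdown and by -0.81 ± 0.17 after H3.Y siRNA (SE, n = 2 per group). The combined knockdown was 2.85-fold above H3.Y siRNA (1.51 ± 0.17). CLDN7, a claudin known to bind EPCAM directly, read 4.66 and 4.79 in the combined knockdown, 4.87 and 4.70 after H3.Y siRNA, and 4.70 and 4.85 after luciferase siRNA. Its groups overlapped in every pairing, and its log2 differences were -0.05, 0.01 and -0.06, each ± 0.14.

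Promoters of these 2 claudins are given from RefSeq (build GRCh38.p14), to show the letters that ZEB and SNAIL repressors recognise. Each runs from 250 bases before to 50 bases after an annotated start. Windows were found for 3 of the 7 member genes measured (CLDN4, CLDN7 and KRT8), with 2 windows for CLDN7. Capitals mark the E-box CACCTG on either strand, read as CAGGTG on the other, the single motif searched. The CLDN4 window on the plus strand lies at chr7:73830746-73831045, and the CLDN7 window shown, on the minus strand, at chr17:7262429-7262728.
CLDN4: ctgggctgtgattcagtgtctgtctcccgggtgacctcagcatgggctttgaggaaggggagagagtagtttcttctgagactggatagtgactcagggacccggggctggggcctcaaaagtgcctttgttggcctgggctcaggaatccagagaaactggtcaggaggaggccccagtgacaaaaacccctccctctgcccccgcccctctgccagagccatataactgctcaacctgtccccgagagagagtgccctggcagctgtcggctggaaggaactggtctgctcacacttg
CLDN7: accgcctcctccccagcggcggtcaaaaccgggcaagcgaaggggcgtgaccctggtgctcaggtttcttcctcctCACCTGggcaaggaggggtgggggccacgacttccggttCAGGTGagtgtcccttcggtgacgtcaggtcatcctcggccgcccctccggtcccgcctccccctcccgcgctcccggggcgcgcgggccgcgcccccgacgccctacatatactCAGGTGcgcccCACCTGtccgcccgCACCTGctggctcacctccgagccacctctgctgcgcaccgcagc
The CLDN7 window shown held 5 such E-boxes and the CLDN4 window 0, as did the KRT8 window. The KRT8 window, at chr12:52926420-52926719 on the minus strand, lies inside the gene's span of 52897191 to 52949860. It thus covers an inner annotated start and not the outer end of KRT8. The other CLDN7 window, at chr17:7263164-7263463, also held 0, and it covers the outer end of the gene at 7263213. The 2 claudins thus differ only for the CLDN7 window shown. Of 35116 promoter windows of this length, 20.6% held at least 1 and 0.0940% held at least 5. These matches describe the letters in the windows and were not tested for binding.

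CDH1 encodes E-cadherin, the adhesion receptor of epithelial adherens junctions. It read 4.88 and 4.86 log2 units in the combined knockdown, 4.26 and 4.27 after H3.Y siRNA, and 4.40 and 4.16 after luciferase siRNA. The combined knockdown arrays were above the other 4, by log2 0.59 ± 0.14 against luciferase and 0.61 ± 0.14 against H3.Y siRNA (SE, n = 2 per group), while H3.Y siRNA and luciferase differed by -0.01 ± 0.14. All 6 values of CDH1 lay under the array medians.

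KRT14, a keratin of the basal layer of stratified epithelia, read 6.64 and 6.44 log2 units in the combined knockdown, 5.71 and 5.64 after H3.Y siRNA, and 6.10 and 5.91 after luciferase siRNA. Its 3 groups were apart in the same order as those of CLDN4, at log2 0.53 ± 0.15 for the combined knockdown against luciferase, -0.33 ± 0.15 for H3.Y siRNA against luciferase and 0.86 ± 0.15 for the combined knockdown against H3.Y siRNA (SE, n = 2 per group).

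Keratins 8 and 18 pair with each other to form the filaments of simple epithelia. KRT8 read 11.44 and 11.58 log2 units in the combined knockdown, 10.14 and 10.89 after H3.Y siRNA, and 11.22 and 10.89 after luciferase siRNA. The groups did not overlap, but the higher H3.Y array and the lower luciferase array have the same value to 2 decimals, and the 2 H3.Y arrays were 0.75 apart. Its log2 differences were 0.46 ± 0.26 for the combined knockdown against luciferase, -0.54 ± 0.26 for H3.Y siRNA against luciferase and 1.00 ± 0.26 for the combined knockdown against H3.Y siRNA. KRT18 on probe set 7955637 read 10.13 and 10.22 in the combined knockdown, 9.35 and 10.06 after H3.Y siRNA, and 10.19 and 10.00 after luciferase siRNA. On probe set 8154725 it read 10.69 and 10.77 in the combined knockdown, 9.73 and 10.18 after H3.Y siRNA, and 10.93 and 10.43 after luciferase siRNA. On both probe sets the combined knockdown overlapped luciferase, at log2 0.08 ± 0.24 and 0.05 ± 0.22. After H3.Y siRNA it differed from luciferase by -0.39 ± 0.24 and -0.72 ± 0.22. KRT18 lies on chromosome 12, but the number 8154725 falls between those of SNAI2 (8150698, chromosome 8) and KLF4 (8163002, chromosome 9). Processed copies of KRT8 and KRT18 are common in the human genome, and whether their transcripts share these probes was not tested.

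The H3.Y arrays were the least alike for the members. H3.Y replicate 1 was lower than replicate 2 on 6 of 9 probe sets, by 1.00 for the second EPCAM probe set, 0.75 for KRT8 and 0.71 for the first KRT18 probe set. The median of replicate 1 minus replicate 2 over the members was -0.40 for H3.Y siRNA, against -0.08 for the combined knockdown and 0.19 for luciferase. Over all probe sets the SD of that difference was 0.419 for H3.Y, 0.304 for the combined knockdown and 0.333 for luciferase. Without H3.Y replicate 1, the difference of H3.Y siRNA from luciferase was log2 -0.72 for the second EPCAM probe set, -0.00 for the first, -0.17 for KRT8 and -0.04 for the first KRT18 probe set. Without H3.Y replicate 2 the same differences were -1.72, -0.41, -0.92 and -0.74. The combined knockdown stood above H3.Y siRNA by 3.45 without replicate 1 and 4.45 without replicate 2 on the second EPCAM probe set, and by 0.63 and 1.38 for KRT8.

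**Figure D2:**
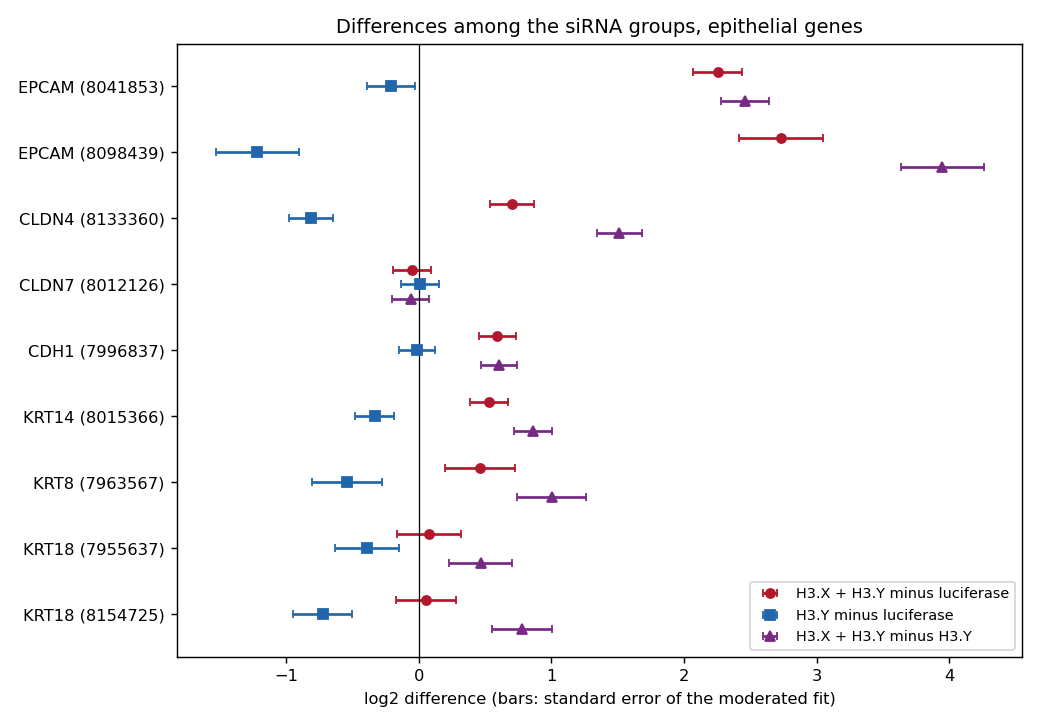
Log2 differences (x axis, with standard errors of the moderated fit as bars) between the siRNA groups for the 9 member probe sets (rows), 2 arrays per group. The combined knockdown minus luciferase differences of EPCAM, at 2.25 and 2.73, stand apart from the other members, which lie between -0.05 and 0.70.

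Read across the list, the mean of the combined knockdown was highest, luciferase in the middle and H3.Y lowest for 8 of 9 probe sets, an order found in 17.4% of all probe sets. The same order with no overlap between arrays held for 4 of 9 (the second EPCAM probe set, CLDN4, KRT14 and KRT8), against 3.92% of all. The median log2 difference of the members was 0.53 for the combined knockdown against luciferase, -0.39 for H3.Y siRNA against luciferase and 0.86 for the combined knockdown against H3.Y siRNA. The medians of all probe sets were 0.00, 0.02 and -0.03. Both comparisons with luciferase share the same 2 luciferase arrays. Nothing is read from these shares, since the genes were chosen with the differences known.

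Over all probe sets, a difference was called at a limma p adjusted by Benjamini-Hochberg under 0.05. In the combined knockdown against luciferase, 2 of 9 member probe sets were called, both of EPCAM and both higher, where 1.84% of all probe sets were called (0.859% higher and 0.985% lower). For H3.Y siRNA against luciferase 0 of 9 were called, where 0.279% of all were called (0.0841% higher and 0.195% lower). There 3 of 9 had an unadjusted limma p under 0.05, as did 4618 of all 33297 probe sets. Against H3.Y siRNA, 4 of 9 were called, namely both EPCAM probe sets, CLDN4 and KRT14, all higher in the combined knockdown, where 4.67% of all were called (2.74% higher and 1.92% lower). Arrays did not overlap, with the combined knockdown above luciferase, for 6 of 9 (23.4% of all) and below it for 0 of 9 (24.0% of all). H3.Y arrays were above luciferase without overlap for 0 of 9 (21.7% of all) and below for 5 of 9 (20.0% of all). Combined knockdown arrays were above H3.Y arrays for 8 of 9 (21.2% of all) and below for 0 of 9 (25.4% of all).

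Each array was also left out in turn, where the lone array of a group is assumed to vary like those of the other groups. With any 1 array left out, the combined knockdown stood above luciferase by log2 2.16 to 2.35 on the first probe set and 2.63 to 2.83 on the second. Without combined knockdown replicate 1 or 2, or luciferase replicate 1 or 2, 0 of the 33297 probe sets were called in that comparison (limma, 2852 to 3897 at an unadjusted p under 0.05). These fits made no call for any gene, so the missing EPCAM calls say nothing about EPCAM itself. Against H3.Y siRNA the combined knockdown stood higher by log2 2.26 to 2.66 on the first EPCAM probe set. On the second it was higher by 3.45 to 4.45, again with any 1 array left out. KRT14 was called in 0 of the 6 fits with 1 array left out. For H3.Y siRNA against luciferase, the second EPCAM probe set gave log2 -1.72 to -0.72 in these fits.

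Other epithelial genes and their regulators were taken from lists of junction, keratin, surface and regulator genes. The lists were chosen with earlier results of these data known, so the p-values of their genes are no independent test. These lists held 108 genes, of which 99 were measured on 101 probe sets, counting MARVELD2, whose 2 probe sets had the same values. The 101 include 12 probe sets for repressors of epithelial genes. Between the combined knockdown and H3.Y siRNA, 11 of the 101 were called higher and 3 lower by limma, 13.9% in all. Over all probe sets 4.67% were called. All probe sets include 12083 without a gene name, while the lists hold named genes only, so the shares do not compare like with like. Between the combined knockdown and luciferase 3 were called higher and 0 lower, 2.97% in all, against 1.84% over all probe sets. For H3.Y siRNA against luciferase 0 were called (0.279% over all probe sets). In that comparison 19 of the 101 had an unadjusted limma p under 0.05, as did 4618 of all 33297 probe sets. Of the repressors, 1 was called higher against luciferase, and 1 higher and 1 lower against H3.Y siRNA, in the combined knockdown. Medians over the 101 probe sets were log2 0.07 for the combined knockdown against luciferase, -0.00 for H3.Y siRNA against luciferase and 0.06 for the combined knockdown against H3.Y siRNA.

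Of the desmosome genes, 3 of 12 probe sets were called higher in the combined knockdown than after H3.Y siRNA and 0 lower. DSG2, a desmosomal cadherin, read 8.46 and 8.42 log2 units in the combined knockdown, 6.95 and 7.16 after H3.Y siRNA, and 7.26 and 7.41 after luciferase siRNA. It rose in the combined knockdown against luciferase by log2 1.10 ± 0.14 (SE, n = 2 per group, limma adjusted p = 0.026) and against H3.Y siRNA by 1.38 ± 0.14 (adjusted p = 0.0094). DSC2, the partner cadherin, was higher than after H3.Y siRNA by 1.13 ± 0.17 (adjusted p = 0.021), and the plaque protein PKP3 by 0.79 ± 0.15 (adjusted p = 0.044), which was called in 0 of 6 fits with 1 array left out. DSP, the plaque protein that ties desmosomes to keratin, gave -0.40, with an adjusted p of 0.53 in limma. Against luciferase DSG2 was the 1 called of 12. There the combined knockdown gave 0.61 for DSC2 and 0.53 for PKP3, and H3.Y siRNA gave -0.52 and -0.26.

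Tight junction genes moved both ways, with 3 of 31 probe sets called higher and 2 lower in the combined knockdown against H3.Y siRNA. PATJ, a polarity scaffold of tight junctions, read 6.73 and 6.76 log2 units in the combined knockdown, 4.96 and 5.05 after H3.Y siRNA, and 5.78 and 5.94 after luciferase siRNA. It was higher by 1.74 ± 0.13 than after H3.Y siRNA (limma adjusted p = 0.0051) and by 0.89 ± 0.13 than after luciferase siRNA (adjusted p = 0.033). CLDN1, the claudin of skin barrier, was higher than after H3.Y siRNA by 1.58 ± 0.24 (adjusted p = 0.024) and LSR, a protein of tricellular contacts, by 0.87 ± 0.13 (adjusted p = 0.022). JAM2, an adhesion molecule also found in endothelium, gave log2 -1.22 ± 0.16 against H3.Y siRNA (adjusted p = 0.016), and JAM3 gave -0.82 ± 0.15 (adjusted p = 0.035). CLDN3, close in sequence and function to CLDN4, gave -0.30, with an adjusted p of 0.30 in limma. Against luciferase PATJ was the 1 tight junction gene called. There the combined knockdown gave 0.93 for CLDN1, 0.16 for LSR, -0.55 for JAM2 and -0.69 for JAM3. H3.Y siRNA gave -0.64, -0.71, 0.67 and 0.13 against luciferase for the same genes in that order.

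Of 11 adherens junction probe sets, vinculin (VCL), which links junctions and focal adhesions to actin, was the 1 called. It was higher in the combined knockdown than after H3.Y siRNA by log2 1.16 ± 0.13 (limma adjusted p = 0.012). Against luciferase VCL gave 0.60 in the combined knockdown and -0.56 after H3.Y siRNA, neither called. Among 10 other keratin probe sets KRT80 was the 1 called. It read 8.33 and 8.15 log2 units in the combined knockdown, 5.51 and 6.16 after H3.Y siRNA, and 7.69 and 7.14 after luciferase siRNA. The combined knockdown stood above H3.Y siRNA by 2.41 ± 0.27 (adjusted p = 0.012), and H3.Y siRNA gave -1.59 ± 0.27 against luciferase (adjusted p = 0.087). Keratins 5, 7 and 19, which mark basal and simple epithelia, gave 0.24, 0.20 and -0.00 for the combined knockdown against H3.Y siRNA, with limma adjusted p of 0.44, 0.48 and 0.99.

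Of 15 probe sets for other epithelial surface and secretory genes, 14-3-3 sigma (SFN) was the 1 called. It read 9.78 and 9.82 log2 units in the combined knockdown, 8.40 and 8.68 after H3.Y siRNA, and 9.12 and 8.93 after luciferase siRNA. The combined knockdown stood above H3.Y siRNA by 1.26 ± 0.15 (limma adjusted p = 0.014). Against luciferase the combined knockdown gave 0.78 and H3.Y siRNA -0.49, neither called. Other genes of this list such as the protease inhibitors SPINT1 and SPINT2, the protease PRSS8 and the surface protein CD24 were not called in any of the 3 comparisons.

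**Figure D3:**
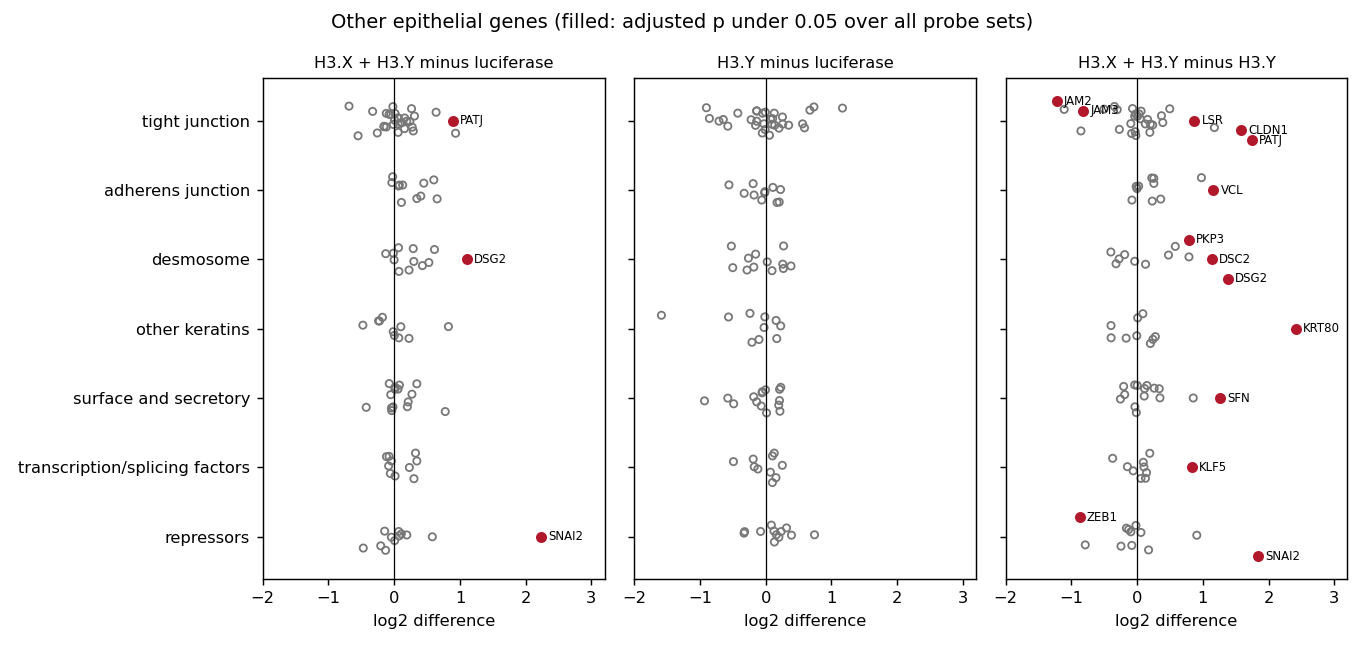
Log2 differences (x axis) of 101 probe sets of other epithelial genes and their repressors in the 3 comparisons (panels), grouped by list (rows, vertical position within a row has no meaning), with named filled points for those called over all probe sets. The combined knockdown minus H3.Y panel has 11 filled points above 0 and 3 below, and the H3.Y minus luciferase panel has 0.

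Regulators of epithelial genes were called in few cases. Of 10 probe sets for epithelial transcription and splicing factors, KLF5, a factor of proliferating epithelium, was the 1 called, higher in the combined knockdown than after H3.Y siRNA by log2 0.83 ± 0.17 (limma adjusted p = 0.046, called in 0 of 6 fits with 1 array left out). ESRP2, which directs epithelial splicing, gave 0.10, and the grainyhead factor GRHL2 0.06, neither called. Against luciferase KLF5 gave 0.34 in the combined knockdown and -0.49 after H3.Y siRNA, neither called. Of 12 repressor probe sets, SNAI2 and ZEB1 were called, in opposite directions. ZEB1 read 6.60 and 6.43 log2 units in the combined knockdown, 7.53 and 7.25 after H3.Y siRNA, and 6.60 and 6.70 after luciferase siRNA. In the combined knockdown it gave -0.87 ± 0.16 against H3.Y siRNA (adjusted p = 0.034) and -0.13 ± 0.16 against luciferase. SNAI2, which encodes the repressor SLUG, read 9.57 and 8.61 in the combined knockdown, 7.14 and 7.37 after H3.Y siRNA, and 7.05 and 6.66 after luciferase siRNA. It rose in the combined knockdown by 2.23 ± 0.32 against luciferase (adjusted p = 0.031) and by 1.84 ± 0.32 against H3.Y siRNA (adjusted p = 0.032). The 2 combined knockdown arrays of SNAI2 were 0.96 apart. SNAI2 against luciferase was 1.75 without combined knockdown replicate 1 and 2.71 without replicate 2. With any 1 array left out, the SNAI2 difference against H3.Y siRNA ranged from 1.36 to 2.32. SNAI2 was not called in these fits in either comparison. Against luciferase, the fits that left 1 array in a compared group made no call for any gene, so there the missing calls say little about SNAI2.

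Array probe sets of the 5 miR-200 hairpins were added to the lists after the files were seen, since these microRNAs target ZEB1 and ZEB2. Their mature arms are given from RefSeq (build GRCh38.p14) to show the 2 seeds of the family, with bases 2 to 8 in capitals. The first 3 share the seed AAUACUG and the last 2 share AACACUG.
hsa-miR-200b-3p: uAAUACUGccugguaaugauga
hsa-miR-200c-3p: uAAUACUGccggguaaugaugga
hsa-miR-429: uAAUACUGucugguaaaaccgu
hsa-miR-200a-3p: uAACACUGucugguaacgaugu
hsa-miR-141-3p: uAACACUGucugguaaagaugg
The hairpin probe sets lay between 2.01 and 5.26 log2 units, with none of the 5 above the median of all probe set means on average. For MIR200C the values were 3.50 and 3.44 in the combined knockdown, 3.47 and 3.76 after H3.Y siRNA, and 3.66 and 3.42 after luciferase siRNA, so the groups overlapped. In each of the 3 comparisons 0 of the 5 were called, and 0 had an unadjusted p under 0.05 (limma). How far these probe sets report mature microRNA was not tested.

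Counts of calls among the other epithelial genes varied with the arrays used. Setting the combined knockdown against H3.Y siRNA, 0 of the 101 probe sets were called without combined knockdown replicate 1 or replicate 2 (limma, 24 at an unadjusted p under 0.05 in each). Without H3.Y replicate 1 there were 6, without replicate 2 there were 18, and without either luciferase array there were 5. Against luciferase, 0 were called without either combined knockdown array or either luciferase array (11 to 17 at an unadjusted p under 0.05), and 2 without either H3.Y array. Against H3.Y siRNA, PATJ, DSG2, VCL, KRT80 and SFN were each called in 4 of the 6 fits with 1 array left out. With 1 array left out, the combined knockdown difference of DSG2 against luciferase lay between 1.02 and 1.18, and that of PATJ against H3.Y siRNA between 1.70 and 1.79.

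Mesenchymal and osteoblast markers differed among themselves. In the combined knockdown against H3.Y siRNA, 3 of 11 probe sets were called higher and 0 lower by limma. They were COL1A1, 1 chain of type I collagen (log2 2.10 ± 0.17, adjusted p = 0.0058), the matrix protein SPARC (1.31 ± 0.18, adjusted p = 0.019) and N-cadherin CDH2 (1.08 ± 0.18, adjusted p = 0.028). COL1A2, the partner chain of COL1A1, gave 0.34 ± 0.15 (limma adjusted p = 0.30, not called). VIM gave -0.12. SPP1, the bone matrix protein osteopontin, gave -1.65 ± 0.53 (adjusted p = 0.15 in limma, not called), with arrays that did not overlap. Against luciferase, COL1A1 was the 1 called of 11, at 1.58 ± 0.17 (limma adjusted p = 0.019), and SPP1 gave 0.08 ± 0.53. The mean level of the 11 probe sets ranged from 7.38 to 7.51 in the combined knockdown, 7.04 to 7.24 after H3.Y siRNA and 6.92 to 7.11 after luciferase siRNA. For the 9 member probe sets the mean was 7.77 on both combined knockdown arrays, 6.33 to 6.63 after H3.Y siRNA and 6.90 to 7.0 after luciferase siRNA. The part of these markers in the members' differences was not tested.

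Probe sets most like EPCAM were sought by Pearson's r with its first probe set over the 6 arrays, among those with 1 gene symbol whose group means spanned at least 1 log2 unit. With 3 groups of 2 arrays, r is a description of shared group differences. The highest were MAP7, a microtubule-binding protein of epithelial cells (r = 0.997), PRICKLE1, a planar polarity protein (0.997), and 3 probe sets of the collagen receptor DDR1 (0.995 to 0.996). MAP7 was higher in the combined knockdown than in luciferase cells by log2 1.44 ± 0.13, PRICKLE1 by 2.08 ± 0.21 and DDR1 by 1.23 to 1.25. The lowest r belonged to AK4, CFAP97, RFTN1, UBP1 and ATP13A3, from -0.996 to -0.994. RFTN1, a lipid raft protein, was lower in the combined knockdown than in luciferase cells (log2 -1.65 ± 0.13). Of the other member probe sets, the second of EPCAM had r = 0.968, CDH1 0.955, KRT14 0.914, CLDN4 0.849, KRT8 0.788, KRT18 0.529 and 0.548, and CLDN7 -0.391.

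**Figure D4:**
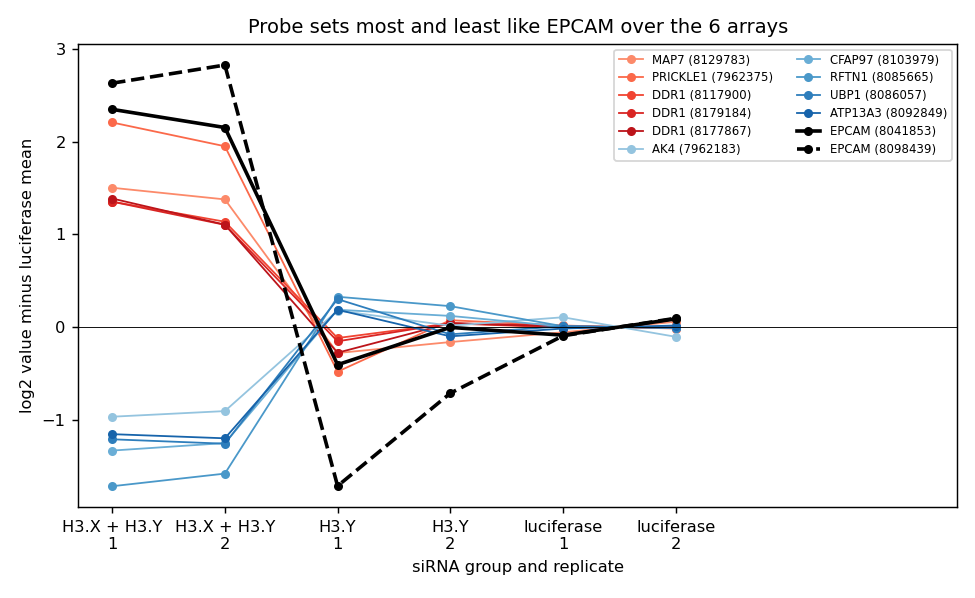
Log2 values minus the luciferase mean (y axis) on each of the 6 arrays (x axis, by siRNA group and replicate, with lines only to guide the eye) for both EPCAM probe sets (black) and the probe sets with the highest (red) and lowest (blue) Pearson's r with EPCAM probe set 8041853. The red lines lie above 0 on both combined knockdown arrays and the blue lines below 0, and EPCAM probe set 8098439 reaches its lowest value on H3.Y replicate 1.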

How the data were processed

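The 6 samples are biotin-labelled total RNA on Affymetrix arrays, per the labels. The authors made the log2 values, 1 for each probe set and array, with oligo, a name taken from the submitters' processing notes. The log base was inferred from their range, 0.687 to 14.02. How background was corrected and probes summarised, and on which build, is not given in the sources used here. Values were used as deposited, and 0 value columns were left unused. A scaling that equalises arrays hides changes common to all transcripts.

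Genes were named from the platform annotation, with 19460 of 33297 probe sets carrying exactly 1 symbol, of which 19429 were updated by Entrez ID in RefSeq (GRCh38.p14). All probe sets were fitted with limma 3.58.1 in R 4.3.3 (lmFit and eBayes, 1 mean per group, 3 residual degrees of freedom), two-sided, with Benjamini-Hochberg adjustment over all probe sets per comparison and no fold minimum. The procedure was tested on simulated data. Members and lists were chosen with earlier results of these data known. Named genes were all members; up to 4 called genes per other list; and the 5 probe sets with the highest and the 5 with the lowest r with EPCAM, leaving out unnamed loci, small RNAs and olfactory receptors. DSP, CLDN3, JAM3, COL1A1, SPARC, CDH2, SPP1, keratins 5, 7 and 19, SPINT1, SPINT2, PRSS8, CD24, ESRP2 and GRHL2 were added after their values were seen, and so were the miR-200 hairpins. Each result was recomputed with a replicate block, on only the 4 arrays of a comparison, after quantile normalization, after median centring, with a filter on low values, with an intensity trend and with each array left out.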

Additional observations from a re-analysis of the deposited data

How the results depend on the processing

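The members' differences were steadier than the counts of calls. Of 318 member differences under alternatives, 298 moved by no more than the replicate SD of the probe set, 20 moved by more, and 0 called differences changed sign; the 20 that moved all came from leaving out an H3.Y or a luciferase array. Quantile normalization again and median centring turned the sign of 0 of the 27 member differences. The deposited arrays already had nearly equal medians and quartiles, so these steps had little to change and are a weak check.

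Counts over all probe sets moved with the setting. For the combined knockdown against luciferase (614 called), a filter keeping probe sets with a mean above the median gave 1442 and an intensity trend 960. For H3.Y siRNA against luciferase (93 called), only the 4 arrays compared gave 0 (3709 at an unadjusted p under 0.05), the filter 540 and the trend 205. For the combined knockdown against H3.Y siRNA (1554 called), only the 4 arrays gave 448 and the filter 2579. Leaving out 1 array gave 0 to 644, 0 to 629 and 12 to 1641 calls in these 3 comparisons.

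Among the 9 member probe sets, calls for H3.Y siRNA against luciferase (0) were 1 under the filter, which left CDH1 and CLDN7 out of the fit. Leaving out 1 array gave 0 to 2, 0 to 1 and 0 to 4 calls. Among other epithelial genes and their repressors, combined knockdown calls against luciferase (3) were 7 with the filter and 5 with the trend. H3.Y calls against luciferase (0) were 4 with the filter, and combined knockdown calls against H3.Y siRNA (14) were 5 with only the 4 arrays. Leaving out 1 array gave 0 to 2, 0 to 4 and 0 to 18. The causes of these changes were not tested.

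With the replicate number as a replicate block, 750, 68 and 1778 probe sets were called in the 3 comparisons, and 2, 0 and 4 member probe sets. The labels do not say that a number marks a shared day or batch; deviations of same-numbered arrays correlated at 0.12 to 0.28. Having 2 arrays in each group bounds how firmly any of this can be stated.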
